A study of Mus musculus with 6 samples.

Results

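The 10 genes described here encode 5 receptors of the fibroblast growth factor (FGF) family (Fgfr1, Fgfr2, Fgfr3, Fgfr4 and Fgfrl1), 3 FGF ligands (Fgf2, Fgf7 and Fgf21), the hepatocyte growth factor Hgf and its receptor Met. They were taken by gene name from a table of 55413 gene records, in which each name occurred once. FGF receptors are tyrosine kinases that bind their ligands together with heparan sulphate and signal through adapters to RAS and the kinases RAF, MEK and ERK. In myoblasts FGF signalling is known to favour growth over terminal differentiation, and ERK induces its own inhibitors, the Sprouty proteins and dual-specificity phosphatases. HGF acting on Met is known for releasing muscle precursors into the limb and for waking quiescent satellite cells. FGF21 differs from most FGFs in that it circulates as a hormone and needs the co-receptor beta-Klotho.

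RNA was measured in C2C12, a line of mouse myoblasts, which form myotubes by fusion once serum is lowered. The cells grew in medium with 10% fetal bovine serum and were collected on day 4 of differentiation in 2% horse serum. The 2 genotypes, WT and FHL3-KO (a knockout of the LIM-domain protein FHL3), have 3 libraries each and share the line, the medium and the day. The labels name no clone and do not say that replicates were separate cultures, so a clone effect and a genotype effect cannot be told apart, and the p-values cover only the spread among these libraries, which may be technical.

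Values were read as FPKM, that is, fragments per kilobase of transcript and per size of the library, so levels can be compared between genes. Absolute depth is unknown, relative depths inferred from the smallest values of short genes lay between 0.859 and 1, and no counting interval can be given. Mitochondrial genes held from 8.56% to 8.82% of the summed FPKM of WT, against 3.98% to 6.18% for the other group, and their median log2 change was -0.46; the part of this shift in the results was not tested. Fhl3 itself was higher in the libraries labelled FHL3-KO, at 56.5 ± 2.77 FPKM against 30.5 ± 3.01 FPKM (SD, n = 3 each), so the transcript goes against the label. The edit itself cannot be seen in FPKM values, and the groups are named by their labels throughout. The myotube markers were present in both groups and 8 of 9 rose, their summed level going from between 4689 and 5179 FPKM in WT to between 11316 and 11777 FPKM. The 9 fibroblast markers summed to between 559.8 and 627.3 FPKM across WT and between 289.0 and 326.2 FPKM across the FHL3-KO-labelled libraries. Of 7 tested fibroblast markers 2 rose and 3 fell, and Thy1 was listed at 0 in every library. Fap, which rose, was listed at 0 in every WT library and entered the test only through the group where it was higher. The 7 cycling-cell markers summed to between 139.0 and 151.0 FPKM across WT and between 142.5 and 155.4 FPKM across the FHL3-KO-labelled libraries. Single markers moved both ways, with 2 of 7 tested rising and 2 falling. The 10 liver markers summed to 121.97 FPKM in WT replicate 1 and to at most 0.022 FPKM in each other library. Of 12528 genes tested with limma on log2(FPKM + 1), 40.8% passed an adjusted p of 0.05, with 19.7% of tested genes rising and 21.2% falling in the libraries labelled FHL3-KO. With all libraries brought to 1 common sum, the median of all genes moved from -0.01 to -0.10 on the log2 scale, and rises made up 36.1% of the calls in place of 48.2%.

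The FGF receptor, Met and Fgf21 genes did not move together. Fgfr1 and Fgf21 rose, Fgfrl1 and Met fell, Fgfr3 and Hgf did not pass the test, and Fgfr2, Fgfr4, Fgf2 and Fgf7 lay below the level at which genes were tested (a mean of 1 FPKM in at least 1 group). The 4 calls among 6 tested genes compare with 40.8% of all tested genes, and the median log2 change of the 6 genes was 0.04. By mean level in WT the order was Fgfrl1, Fgfr1, Met, Fgf21, Fgfr3, Hgf and Fgf2, with Fgf7, Fgfr2 and Fgfr4 near 0; Fgf21 and Fgfr3 overlapped, as did Hgf and Fgf2. In the libraries labelled FHL3-KO, Fgfr1 came first and Fgf21 stood above Met. Hgf entered the test only through the group labelled FHL3-KO. In bulk RNA, fewer cells of a type and less RNA per cell cannot be told apart.

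**Figure D1:**
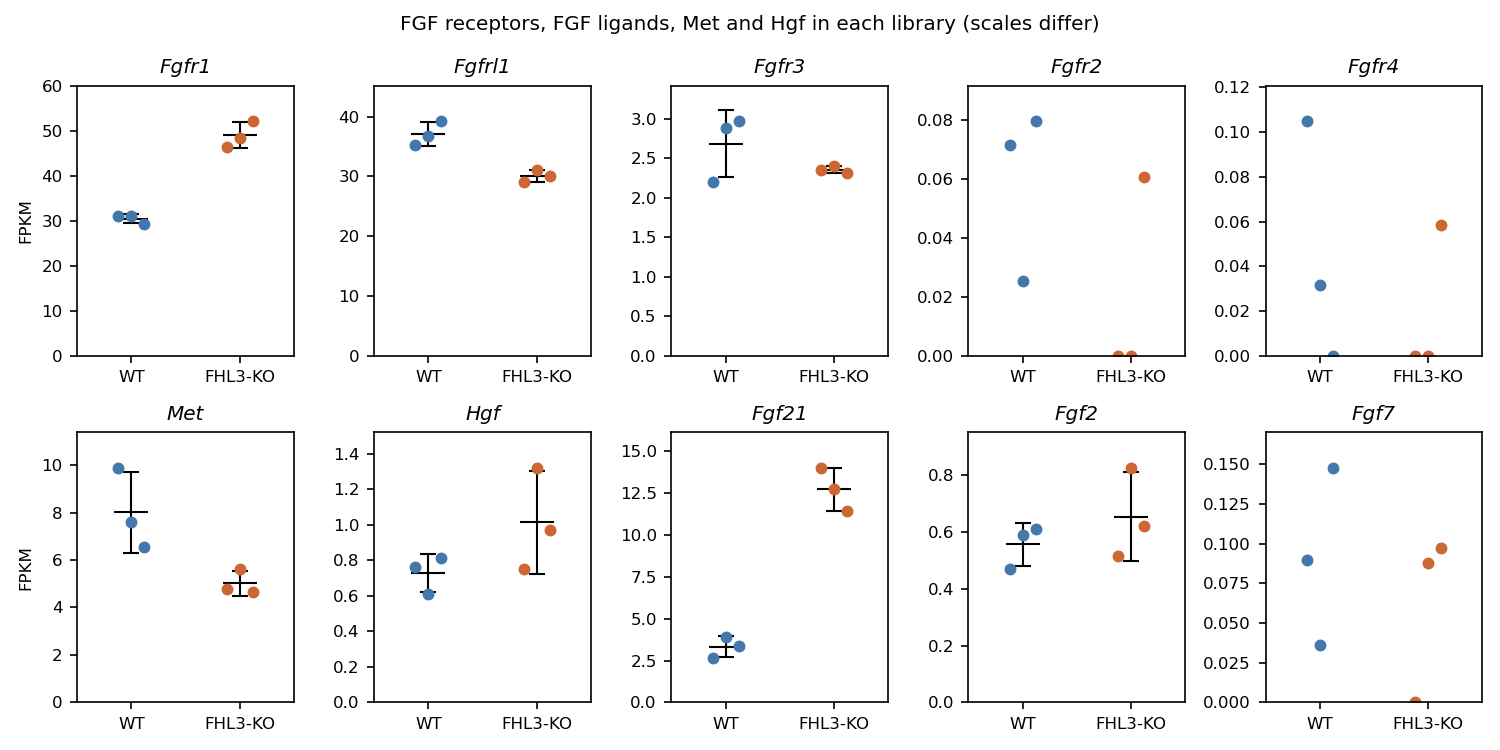
FPKM of the 10 genes in each library (points), with the mean (horizontal line) and SD (bars) of 3 libraries per group, left out for Fgfr2, Fgfr4 and Fgf7, which are listed at 0 in some libraries; each panel has its own linear axis from 0. Fgfr1 and Fgf21 are higher in all 3 libraries labelled FHL3-KO, Fgfrl1 and Met are lower in all 3, and the groups overlap for the other 6 genes.

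Fgfr1, the receptor on which myoblasts mainly rely, was the most abundant kinase-bearing FGF receptor in every library. Fgfr1 (ENSMUSG00000031565, chromosome 8, 25513654 to 25575718, plus strand, build GRCm38) measured 31.1, 31.1 and 29.4 FPKM across WT replicates 1 to 3, against 46.6, 48.6 and 52.2 FPKM across the FHL3-KO-labelled replicates. The groups did not overlap, as was the case for 53.8% of all tested genes. The mean rose 1.61-fold, from 30.5 ± 0.999 to 49.1 ± 2.86 FPKM, with a log2 change of 0.67 (SE 0.0767) and a limma adjusted p of 0.000772. The exact two-sided permutation p was 0.1, the smallest that 3 against 3 allows. Annotated exons of the antisense transcript Gm16159 cover 164 of the 9875 exon bases of Fgfr1, and Gm16159 averaged 0.195 FPKM.

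The chromosome of Fgfr1 also moved. The 676 tested genes of chromosome 8 had a median log2 change of 0.37, and 51.5% of them rose. The other 19 nuclear chromosomes had medians between -0.19 (chromosome 3) and 0.07 (chromosomes 7 and 17). Of the chromosome 8 genes, 19.7% had a larger log2 change than Fgfr1. Of 18 tested neighbours within 1 Mb of Fgfr1, 6 rose and 2 fell, with a median of 0.03. The direct neighbours Letm2 and Tacc1 had log2 changes of -0.07 and 0.21 and did not pass (limma adjusted p = 0.727 and 0.187). With the median of its chromosome removed from each library, Fgfr1 kept a log2 change of 0.31 (limma adjusted p = 0.0149). The deviations of the chromosome 8 median were -0.18, -0.17 and -0.17 in the WT libraries and 0.17, 0.20 and 0.19 in the others, so all 3 libraries of a group shared the shift.

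**Figure D2:**
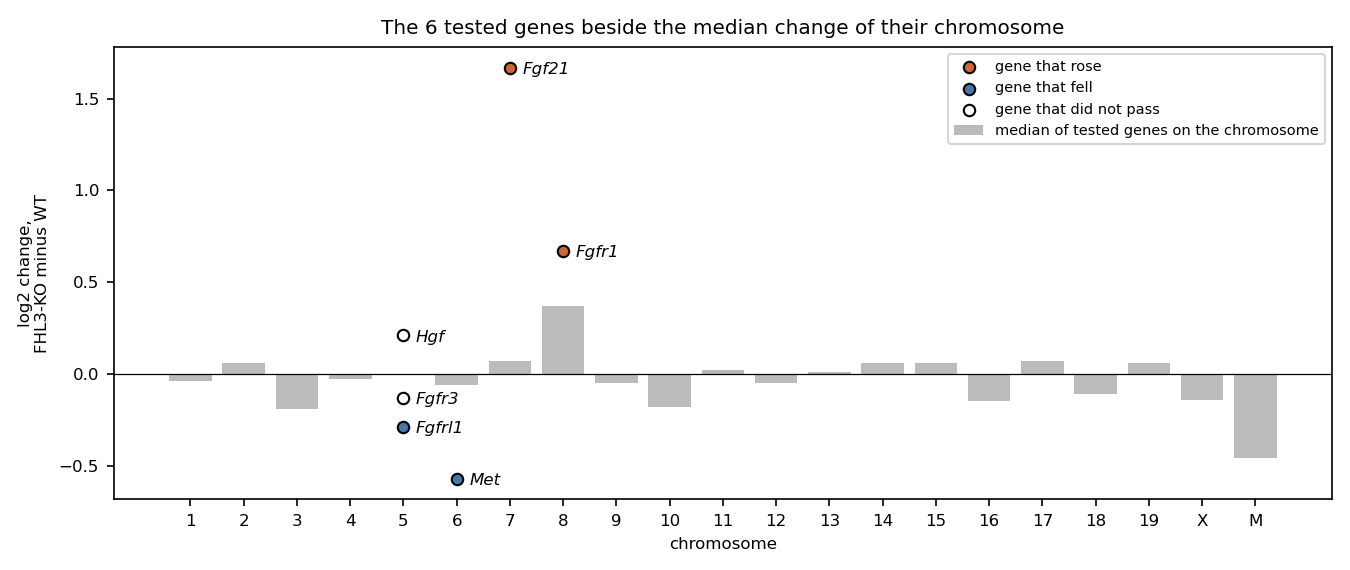
Log2 change, FHL3-KO minus WT, on the log2(FPKM + 1) scale, of the 6 tested genes (points) at their chromosome, with the median log2 change of all tested genes of each chromosome (grey bars; M is the mitochondrial genome). The bar of chromosome 8 stands at 0.37, and Fgfr1 lies above it at 0.67.

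Fgfrl1, a receptor-like protein that binds FGFs but lacks the tyrosine kinase domain, went the other way. Fgfrl1 (ENSMUSG00000008090, chromosome 5, 108692382 to 108706924) stood at 35.2, 36.8 and 39.2 FPKM across WT, against 29.2, 31.1 and 30.1 FPKM across the FHL3-KO-labelled libraries. Every WT library lay above every library labelled FHL3-KO. The mean fell from 37.1 ± 2.03 to 30.1 ± 0.986 FPKM, a log2 change of -0.29 (SE 0.0762, limma adjusted p = 0.0196). The direction held in all 16 alternatives, but the call ended without WT replicate 2 (adjusted p = 0.0721), WT replicate 3 (0.0631), the replicate 1 labelled FHL3-KO (0.0734) or the replicate 3 so labelled (0.0509), while with the trends with length and GC content removed the log2 change was -0.51 (0.00124, the lowest limma adjusted p over the alternatives). As a ratio within each library, Fgfr1 over Fgfrl1 was 0.883, 0.846 and 0.748 in WT and 1.60, 1.56 and 1.74 in the libraries labelled FHL3-KO. In these FPKM values the kinase receptor was thus below the receptor without a kinase in each WT library and above it in each of the others (exact permutation p = 0.1). The order of these genes depends on the exon lengths used for FPKM, which are unknown here.

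Fgfr3, which in bone restrains chondrocyte growth, was the only other kinase receptor above 1 FPKM. It (ENSMUSG00000054252, chromosome 5, 33721674 to 33737068) stood at 2.196, 2.88 and 2.97 FPKM across WT, against 2.34, 2.40 and 2.31 FPKM across the FHL3-KO-labelled libraries. The libraries labelled FHL3-KO lay inside the WT range, and the log2 change of -0.13 (SE 0.122) did not pass (limma adjusted p = 0.426, with the sign turning to 0.04 after quantile normalization).

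Fgfr4 and Fgfr2 were at the edge of detection. Fgfr4, a receptor known from embryonic and regenerating muscle, was at 0.105 and 0.0315 FPKM and listed at 0 in WT replicates 1 to 3. In the replicates 1 to 3 labelled FHL3-KO it was listed at 0, 0 and 0.0583 FPKM. Its highest value was in WT replicate 1, the library with the liver markers, and Fgfr4 is also a receptor of hepatocytes; the part of liver RNA in that value was not tested. Fgfr2, the receptor of many epithelia, was at 0.0716, 0.0253 and 0.0796 FPKM across WT, was listed at 0 in FHL3-KO replicates 1 and 2 and stood at 0.0607 FPKM in replicate 3. Its annotated exons share 314 of 10328 bases with Ctbp2 on the same strand, which averaged 11.6 FPKM, so the Fgfr2 level is uncertain. No fold is given for either gene, since an exact 0 in such a table can be a failed estimate.

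Of the summed FPKM of the 4 kinase receptors, Fgfr1 therefore took almost everything. Its share was 92.9%, 91.4% and 90.6% in WT and 95.2%, 95.3% and 95.6% in the libraries labelled FHL3-KO, with means of 91.6% ± 1.17 and 95.4% ± 0.177. Fgfr3 took 8.06% ± 1.34 and 4.58% ± 0.300 (SD, n = 3 each). The groups did not overlap for these 2 shares, and the exact permutation p (two-sided) was 0.1 for each and 0.2 after Benjamini-Hochberg adjustment over the 4 receptors. A larger share of Fgfr1 thus went with a higher Fgfr1 level, while the Fgfr3 level itself did not pass the test.

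Met fell while Hgf stayed low. Met (ENSMUSG00000009376, chromosome 6, 17463800 to 17573980), the HGF receptor, stood at 9.89, 7.60 and 6.56 FPKM across WT, against 4.79, 5.61 and 4.66 FPKM across the FHL3-KO-labelled libraries. The lowest WT value lay above the highest of the other group, though the WT values were spread widely. WT replicate 1, the library with the liver markers, was highest, and the part of liver RNA in that value was not tested. The mean fell from 8.01 ± 1.70 to 5.02 ± 0.518 FPKM, a log2 change of -0.57 (SE 0.150, limma adjusted p = 0.0199). Without WT replicate 1 the log2 change was -0.42 (limma adjusted p = 0.0445), the smallest over the left-out libraries. Met has a long transcript (7679 exon bases), and with the trend of each library with exon length and GC content removed its log2 change was -0.35 (adjusted p = 0.0183). The call ended when WT replicate 2 was left out (adjusted p = 0.0568), or else the replicate 1 labelled FHL3-KO (0.0663) or the replicate 3 so labelled (0.0601), and with low values kept (0.0666), and the lowest adjusted p over the alternatives was 0.0138.

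Hgf (ENSMUSG00000028864, chromosome 5, 16553495 to 16620152), the ligand of Met, was near 1 FPKM in all libraries, at 0.760, 0.609 and 0.815 FPKM across WT and 0.749, 1.32 and 0.969 FPKM across the FHL3-KO-labelled libraries. The groups overlapped, and the log2 change of 0.21 (SE 0.146) did not pass (limma adjusted p = 0.276). It became 0.66 with an adjusted p of 0.00939 once the trends with length and GC content were removed, and 0.42 with an adjusted p of 0.0483 after quantile normalization. The call for Hgf thus depended on the processing. The ratio of Met to Hgf within a library was 13.0, 12.5 and 8.05 in WT and 6.39, 4.25 and 4.81 in the libraries labelled FHL3-KO (exact permutation p = 0.1).

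HGF is secreted as an inactive precursor that serine proteases cut. The proteases specialised for it were nearly silent: St14 (matriptase), Hpn (hepsin) and Hgfac were below 1 FPKM in every library, and Hpn, F12 and Klkb1 were above 0 only in WT replicate 1, the library with the liver markers. Of the 4 tested genes of this list 1 rose and 1 fell, against a background of 19.7% rising and 21.2% falling. Their median log2 change was 0.08 against -0.01 for all tested genes. Plau, the urokinase gene, had the highest mean of the list in both groups. It averaged 156.9 FPKM across WT, against 154.9 FPKM across the FHL3-KO-labelled replicates, and its log2 change of -0.02 did not pass (limma adjusted p = 0.868). Plat, the tissue plasminogen activator, fell from 40.4 ± 1.74 to 15.6 ± 0.758 FPKM (log2 change -1.32, limma adjusted p = 5.37e-05), on chromosome 8, where 7.4% of tested genes fell. The urokinase receptor Plaur rose from 14.5 ± 2.09 to 21.02 ± 2.81 FPKM (log2 change 0.51, limma adjusted p = 0.0195). That call was lost when low values were kept (adjusted p = 0.0645), without WT replicate 1 (0.0519) or 2 (0.0566), or without the replicate 3 labelled FHL3-KO (0.0568), and the lowest adjusted p over the alternatives was 0.01.

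Among 10 tested partners and relatives of MET, 3 rose and 2 fell, with a median log2 change of 0.13, and both counts lie near the background of 19.7% rising and 21.2% falling. The docking protein Gab1, which links MET to its downstream enzymes, rose from 5.94 ± 0.920 to 9.42 ± 0.935 FPKM (log2 change 0.59, limma adjusted p = 0.00889). Gab1 also lies on chromosome 8, and with the chromosome median removed its change was 0.23 (adjusted p = 0.176). The hyaluronan receptor Cd44, a co-receptor of MET, fell from 290.8 ± 46.4 to 180.9 ± 15.4 FPKM (log2 change -0.67, adjusted p = 0.00602), and the receptor phosphatase Ptprj from 1.74 ± 0.214 to 0.862 ± 0.0562 FPKM (log2 change -0.55, adjusted p = 0.00927). Ptprj entered the test only through WT, where it is higher. Rises numbered 1 without WT replicate 2 or the replicate 1 labelled FHL3-KO, and 2 without WT replicate 3 or the replicate 2 or 3 so labelled. They also numbered 1 with all libraries brought to a common sum, 1 with chromosome medians removed and 4 with length and GC trends removed.

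Fgf21 changed most of the 10 genes. Fgf21 (ENSMUSG00000030827, chromosome 7, 45613886 to 45615490, minus strand), a hormone that muscle releases under stress, stood at 2.66, 3.91 and 3.39 FPKM across WT, against 14.01, 12.7 and 11.4 FPKM across the FHL3-KO-labelled libraries. The groups were far apart, and WT replicate 1 with its liver markers held the lowest value. Liver is a main source of circulating FGF21, and the part of liver RNA in these values was not tested. The mean rose 3.83-fold, from 3.32 ± 0.631 to 12.7 ± 1.31 FPKM (log2 change 1.67, SE 0.136, limma adjusted p = 0.000197). Only 0.503% of tested genes had a larger log2 change. The call held in all 16 alternatives, with log2 changes from 1.55 to 1.92. Klb, which encodes the beta-Klotho co-receptor that FGF21 needs, was at or below 0.0356 FPKM in every library.

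The Fgf21 promoter is shown because Fgf21 is a known target of the stress factor ATF4, and 10 of 14 tested genes of the ATF4 pathway rose in the same libraries. ATF4 binds with C/EBP proteins to a composite element, searched here as TGATGNAA on both strands of RefSeq promoters (250 bases before to 50 after the start site, GRCm38.p6). The capitals mark the match, which lies 139 to 132 bases before the start site and reads as the element on the opposite strand.
Fgf21, chr7:45615441-45615740, minus strand: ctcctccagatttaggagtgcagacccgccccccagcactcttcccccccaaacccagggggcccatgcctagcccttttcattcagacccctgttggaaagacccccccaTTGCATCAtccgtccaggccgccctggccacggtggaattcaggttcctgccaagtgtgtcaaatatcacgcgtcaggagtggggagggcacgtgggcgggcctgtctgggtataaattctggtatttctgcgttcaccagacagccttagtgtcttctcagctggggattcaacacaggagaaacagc

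The same letters were found in 3.97% of 32851 promoter records. Of the 9 genes among the 10 with a record, Fgf21 had a match, and Fgf2, Fgf7, Fgfr2, Fgfr3, Fgfr4, Fgfrl1, Hgf and Met had none in this window. Of the 15 ATF4 pathway genes, all with a record, 4 had a match. The percentage above is per record, while a gene counts if any of its records matches, so they are not directly comparable. The matches of these 4 genes, with 12 bases on each side and all turned so that the element reads forward, compare with that of Fgf21 as follows.
Fgf21, chr7:45615610-45615641, plus strand: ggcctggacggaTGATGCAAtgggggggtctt
Chac1, chr2:119351037-119351068, minus strand: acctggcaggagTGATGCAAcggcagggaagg
Atf3, chr1:191183424-191183455, plus strand: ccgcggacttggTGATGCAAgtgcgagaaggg
Asns, chr6:7693213-7693244, minus strand: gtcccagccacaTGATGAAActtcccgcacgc
Trib3, chr2:152344027-152344058, plus strand: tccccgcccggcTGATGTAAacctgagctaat
Fgf21, Chac1 and Atf3 share all 8 letters, while Asns and Trib3 differ at the free position. A match describes the letters and does not show binding.

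Of 14 tested ATF4 pathway genes 10 rose and 1 fell, with a median log2 change of 0.84 against -0.01 for all tested genes and a background of 19.7% rising. Over the alternatives 8 to 10 rose and 0 to 2 fell. Chac1, which degrades glutathione, rose from 6.53 ± 1.57 to 26.6 ± 0.927 FPKM, the pseudokinase Trib3 from 2.30 ± 0.457 to 10.8 ± 0.876 FPKM, Atf3, a transcription factor of the stress response, from 7.21 ± 0.530 to 22.1 ± 1.58 FPKM and the asparagine synthetase Asns from 30.3 ± 2.65 to 63.0 ± 7.97 FPKM (with limma adjusted p of 0.000167, 0.00011, 7.37e-05 and 0.000672). These are the 4 genes whose promoters are printed with that of Fgf21. Atf4 itself rose from 139.5 ± 3.85 to 253.7 ± 8.56 FPKM, and the serine synthesis enzymes Phgdh and Psat1 rose at log2 changes of 1.11 and 0.92, without a match in their promoter windows. The gene that fell was Eif2ak3, which encodes the kinase PERK (log2 change -0.59, limma adjusted p = 0.0166). Its call ended when WT replicate 2 was left out (0.0527), or else the replicate 1 labelled FHL3-KO (0.0586), and with low values kept (0.0581), and the lowest adjusted p over the alternatives was 0.00625. The stress factor Ddit3 (CHOP) was at 24.9 and 19.6 FPKM, a difference that did not pass (adjusted p = 0.0689). It passed as lower with a common sum (log2 change -0.44, adjusted p = 0.0284) and without FHL3-KO replicate 1 (-0.45, 0.0401), with adjusted p up to 0.411 over the alternatives. The table holds 2 records named Ddit3, and the more abundant one is given.

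Fgf2 and Fgf7 were low in both groups. Fgf2, the basic FGF that is commonly added to myoblast cultures, was at 0.470, 0.591 and 0.610 FPKM across WT and 0.515, 0.827 and 0.622 FPKM across the FHL3-KO-labelled libraries, with overlapping groups. It shares 640 of its 6782 exon bases with Nudt6 on the opposite strand, which averaged 4.29 FPKM, and the strand setting of the counting is unknown here, so the Fgf2 level is uncertain. Fgf7, a ligand that fibroblasts make for epithelia, was at 0.0900, 0.0363 and 0.148 FPKM across WT and, in the other group, listed at 0, 0.0878 and 0.0972 FPKM. Its 3 values in each group overlapped.

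Among all 22 FGF ligand genes, 9 were listed at 0 in all libraries and 4 were tested. Of these 4, Fgf21, Fgf5 and Fgf13 rose and Fgf11 did not pass, against a background of 19.7% rising. Their median log2 change was 0.67 against -0.01 for all tested genes. Over the alternatives 2 to 3 rose and 0 fell. Fgf5, a secreted FGF known for ending hair growth, stood at 2.23, 2.27 and 2.12 FPKM across WT, against 5.48, 6.04 and 4.45 FPKM across the FHL3-KO-labelled libraries. All 3 libraries of the latter group were higher (2.41-fold, log2 change 0.97, SE 0.123, limma adjusted p = 0.00118). Fgf11 and Fgf13 encode FGF-like proteins that stay inside the cell. Fgf13 rose from 0.625 ± 0.0983 to 1.10 ± 0.113 FPKM (log2 change 0.37, limma adjusted p = 0.0448), entered the test only through the group where it was higher, and lost its call in 10 of 15 alternatives, including each of the 6 left-out libraries (adjusted p from 0.0096 to 0.122 over the alternatives). Fgf11 was at 6.90 and 7.75 FPKM (adjusted p = 0.298).

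**Figure D3:**
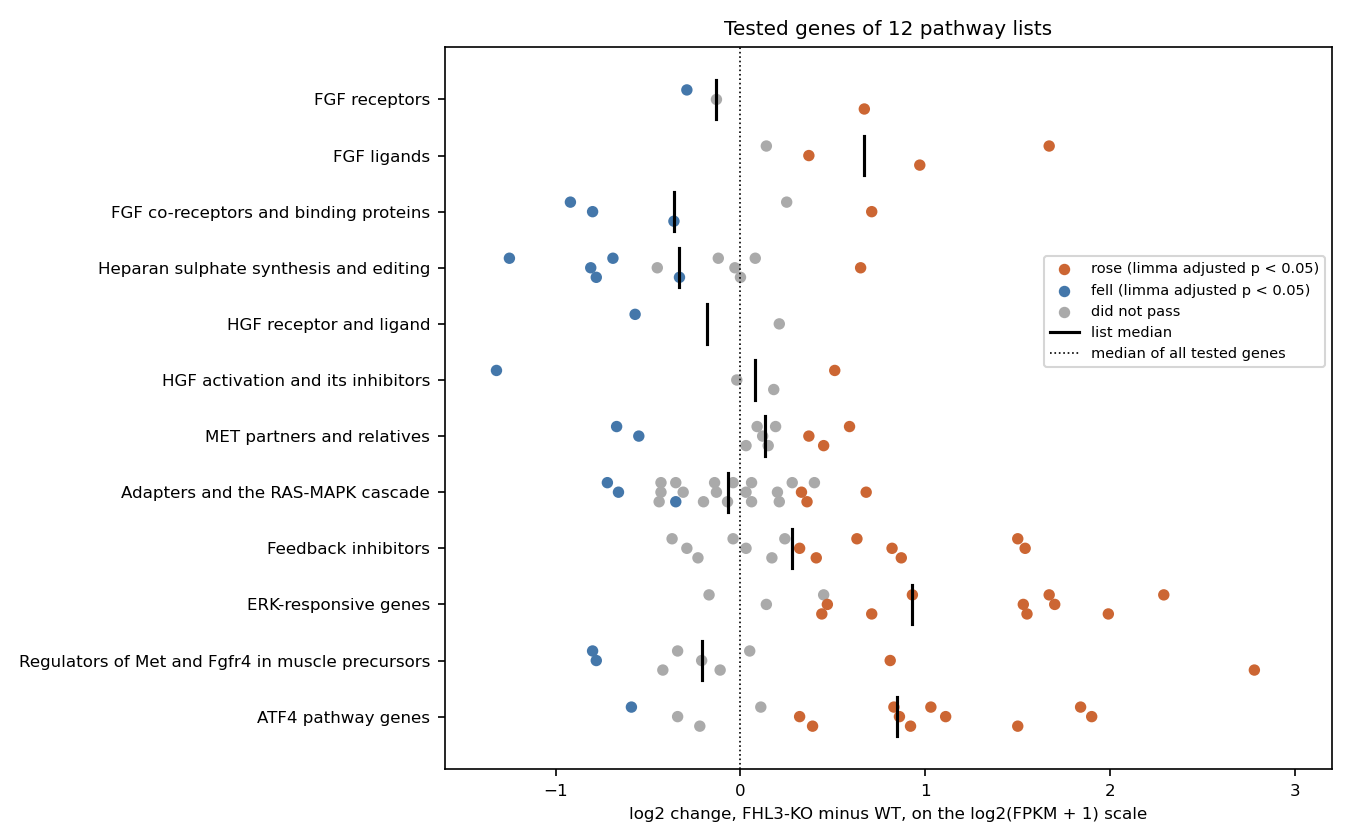
Log2 change, FHL3-KO minus WT, on the log2(FPKM + 1) scale, of every tested gene in the 12 lists around FGF and HGF signalling (points, coloured by call), with each list's median (bar) and the median of all tested genes (dotted line). The ERK-responsive genes and ATF4 pathway genes have medians of 0.93 and 0.84, and the heparan sulphate genes one of -0.33.

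FGF and HGF both bind heparan sulphate, and among 11 tested genes that build or edit it 5 fell, 1 rose and 5 did not pass, with a median log2 change of -0.33 and a background of 21.2% falling and 19.7% rising. Hs6st1, which adds 6-O-sulphate, rose from 10.3 ± 0.151 to 16.7 ± 0.899 FPKM, and Sulf1, which removes it outside the cell, fell from 52.1 ± 7.06 to 21.4 ± 3.04 FPKM. The second such sulphatase, Sulf2, was at 1.59 ± 0.288 and 0.603 ± 0.138 FPKM; it entered the test only through WT, where it is higher, so its call adds no support. The chain polymerase Ext1 fell from 47.5 ± 1.88 to 26.7 ± 1.88 FPKM and perlecan (Hspg2), a matrix proteoglycan that carries the chains, from 94.0 ± 11.0 to 54.7 ± 9.21 FPKM. The limma adjusted p values of these genes were 0.00103, 0.000617, 0.00731, 0.000456 and 0.00438, and all 5 calls held in every alternative in which the gene was tested. The fibroblast markers, which include matrix genes, had a lower sum in the same libraries, and their part in these falls was not tested.

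Of 5 tested FGF co-receptors and binding proteins 3 fell and 1 rose, with a median log2 change of -0.36 and a background of 21.2% falling and 19.7% rising. The adhesion protein Ncam1, which can bind FGF receptors, rose from 144.3 ± 7.71 to 237.3 ± 28.9 FPKM (with limma adjusted p = 0.00229). N-cadherin (Cdh2), which can stabilise FGFR1 at the membrane, fell from 55.9 ± 6.30 to 31.7 ± 2.49 FPKM, and Flrt2, a membrane protein that can bind FGF receptors, from 18.5 ± 4.29 to 9.26 ± 1.93 FPKM (adjusted p = 0.00128 and 0.00805).

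The adapters and kinases between receptor and ERK showed no shared direction. Of 23 tested genes 3 rose, 3 fell and 17 did not pass, with a median log2 change of -0.07 and a background of 19.7% rising and 21.2% falling. Hras, a RAS gene, rose from 38.1 ± 3.08 to 61.8 ± 4.08 FPKM (with limma adjusted p = 0.0014). The MEK gene Map2k1 rose at a log2 change of 0.33 and the adapter Crk fell at -0.72 (limma adjusted p of 0.00895 and 0.0014). The call for Map2k1 was lost with all libraries brought to a common sum (adjusted p = 0.059, against a lowest value of 0.00502 over the alternatives). ERK1 (Mapk3) was at 49.9 and 57.9 FPKM, a difference that did not pass (adjusted p = 0.0569). With 1 library left out, falls in the list numbered 6 (WT replicate 3), 5 (FHL3-KO replicate 2) or 1 (WT replicate 2 or FHL3-KO replicate 1), and rises numbered 1 with all libraries brought to a common sum.

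In the libraries labelled FHL3-KO, the feedback inhibitors and ERK-responsive genes rose more often than they fell. Of 14 tested feedback inhibitors 7 rose and 0 fell, with a median log2 change of 0.28 against -0.01 for all tested genes and a background of 19.7% rising and 21.2% falling. Over the alternatives 5 to 7 rose and 0 to 1 fell, and by limma's unadjusted p under 0.05 the falls numbered 1 (Spred3). Spry1, a Sprouty protein that blocks receptor signalling upstream of ERK, stood at 10.1, 11.0 and 9.47 FPKM across WT, against 31.9, 33.1 and 29.6 FPKM across the FHL3-KO-labelled libraries. Every library labelled FHL3-KO was above every WT library, and the log2 change was 1.54 (SE 0.0883, limma adjusted p = 5.19e-05). The ERK phosphatase Dusp5 rose from 3.74 ± 0.250 to 12.4 ± 0.715 FPKM and Dusp6, which acts on ERK in the cytoplasm, from 16.01 ± 1.45 to 29.1 ± 1.68 FPKM (with limma adjusted p = 7.65e-05 and 0.000705). The Sprouty genes Spry2 and Spry4 rose at log2 changes of 0.63 and 0.87, Spry4 passing the filter only through the group where it was higher.

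Of 13 tested ERK-responsive genes 10 rose and 0 fell, with a median log2 change of 0.93 and a background of 19.7% rising. Over the alternatives 8 to 11 rose and 0 to 1 fell, and by limma's unadjusted p under 0.05 the falls numbered 0. Egr1, an immediate early transcription factor, stood at 21.7, 17.9 and 16.5 FPKM across WT, against 75.1, 83.2 and 71.6 FPKM across the FHL3-KO-labelled libraries (log2 change 1.99, SE 0.115, limma adjusted p = 5.2e-05). Its relative Egr2 was at 0.702, 0.645 and 0.538 FPKM across WT, against 6.41, 7.34 and 7.20 FPKM in the others, and passed the filter only through the latter group. The groups lay far apart for both genes. Egr3 rose from 9.45 ± 2.03 to 32.2 ± 5.89 FPKM, the growth regulator Myc from 8.53 ± 1.25 to 26.8 ± 2.38 FPKM and the early response gene Ier3 from 15.6 ± 1.53 to 47.0 ± 5.46 FPKM (with limma adjusted p = 0.000468, 0.000175 and 0.000138). Ier2, another early response gene, rose from 19.3 ± 2.11 to 64.8 ± 4.82 FPKM and lies on chromosome 8, where its log2 change of 1.70 was 1.34 with the chromosome median removed.

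The ETS factors that FGF induces in the embryo moved less. Etv4 rose from 20.3 ± 2.23 to 28.0 ± 2.88 FPKM (log2 change 0.44, limma adjusted p = 0.0162). Its call ended without WT replicate 2 (adjusted p = 0.0587) and with the trends with length and GC content removed (0.0532), and the lowest adjusted p over the alternatives was 0.0121. The related Etv1 was at 1.06 and 1.80 FPKM and Etv5 at 4.36 and 4.92 FPKM, and neither passed (adjusted p = 0.0622 and 0.431). Cyclin D1 (Ccnd1), which growth factors induce in cycling cells, was at 35.1 and 31.0 FPKM, a difference that did not pass (adjusted p = 0.126). It passed as lower in 4 of 16 alternatives, namely quantile normalization (0.0313), a common sum (0.0454), a length and GC correction (0.0243) and chromosome medians removed (0.0384), and the adjusted p ranged up to 0.347. Fos rose at a log2 change of 0.47 (adjusted p = 0.0209), and its call ended in 7 of 16 alternatives, among them the removal of WT replicate 2 or 3 or of the replicate 1 or 3 labelled FHL3-KO (adjusted p from 0.0534 to 0.0869 in these 4, and 0.00744 at the lowest over the alternatives). Protein phosphorylation was not measured here.

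**Figure D4:**
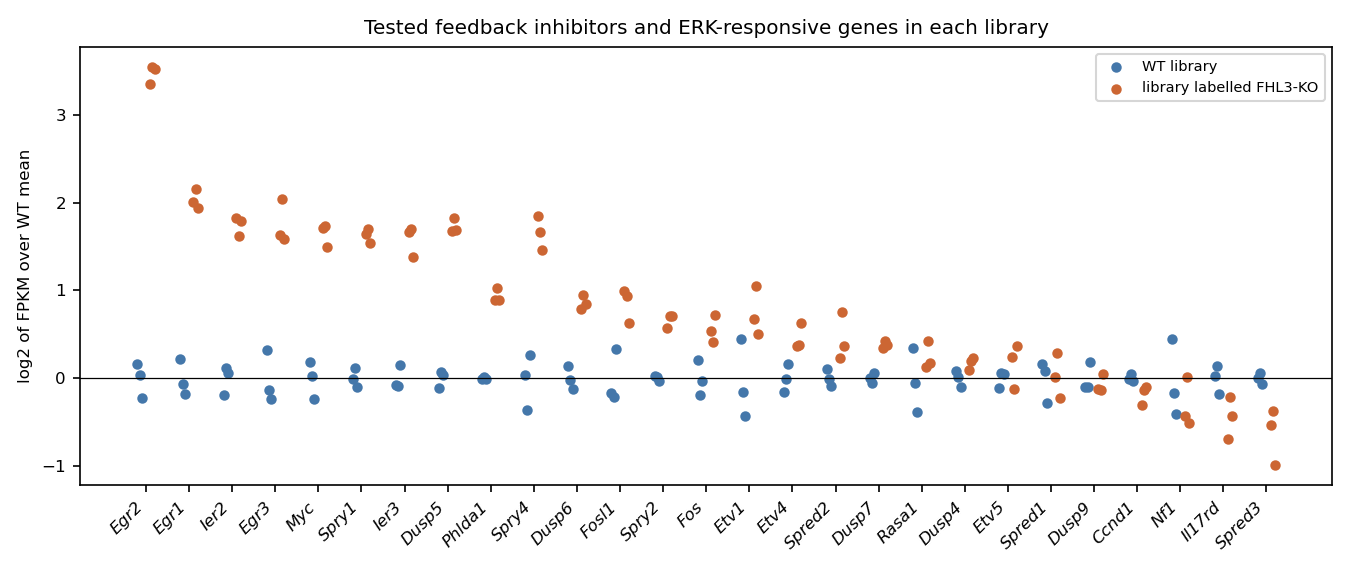
Log2 of FPKM over the WT mean, for each library, of the 27 tested feedback inhibitors and ERK-responsive genes, ordered by their log2 change on the log2(FPKM + 1) scale; WT libraries are blue and libraries labelled FHL3-KO orange. Egr2, Egr1, Ier2 and Egr3 lie highest, and Spred3, Il17rd and Ccnd1 lie below 0 in all 3 libraries labelled FHL3-KO without passing the test.

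The promoters of 2 genes of these lists held a CArG box, the site of serum response factor, a partner of the ERK-activated ternary complex factors. The boxes are shown to put letters beside the Dusp5 and Egr2 values above. A box stands in 1.63% of the 32851 promoter records, in 1 of 11 feedback inhibitors, in 1 of 6 ERK-responsive genes with a record, and in 0 of the 9 FGF and HGF genes with a record. The percentage is per record, while a gene counts if any of its records holds a box, so they are not directly comparable. The capitals mark the box, and both promoters are on the plus strand of GRCm38.p6.
Dusp5, chr19:53529051-53529084: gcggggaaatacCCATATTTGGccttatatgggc
Dusp5, chr19:53529061-53529094: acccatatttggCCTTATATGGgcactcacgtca
Egr2, first record, chr10:67537482-67537515: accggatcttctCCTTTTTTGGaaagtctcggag
Egr2, second record, chr10:67537785-67537818: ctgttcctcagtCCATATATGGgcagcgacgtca
The Dusp5 boxes lie 82 to 73 and 72 to 63 bases before the start site, next to each other, and each Egr2 box lies 72 to 63 bases before the start site of its own record. These matches describe letters in a window and do not show binding.

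Transcription factors known to act on Met or Fgfr4 in muscle precursors were mixed. Of 9 tested genes 2 rose and 2 fell, with a median log2 change of -0.21. Both counts lie near the background of 19.7% rising and 21.2% falling. Falls numbered 4 without the replicate 2 labelled FHL3-KO. Pax3, which activates Met in the embryo, was listed at 0 in every library. Lbx1, which guides migrating limb precursors, stood at 0.244, 0.371 and 0.353 FPKM across WT, against 7.44, 8.33 and 8.53 FPKM across the FHL3-KO-labelled libraries. Lbx1 passed the filter only through the latter group (log2 change 2.78, SE 0.111, limma adjusted p = 9.39e-06). Tead4, which activates muscle genes, rose from 21.1 ± 0.684 to 37.7 ± 2.24 FPKM, and the Eyes absent co-factors Eya4 and Eya1 fell at log2 changes of -0.78 and -0.80 (limma adjusted p = 0.00039, 0.00458 and 0.00596).

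The myotube markers rose in the same libraries as Fgfr1 and Fgf21, and their part in the changes of the FGF and HGF genes was not tested. The markers of undifferentiated myoblasts, a state in which FGF and HGF are known to act, moved both ways. Of 6 tested, 2 fell and 3 rose, against a background of 21.2% falling and 19.7% rising. The list summed to between 77.6 and 91.3 FPKM across WT and between 92.4 and 106.7 FPKM in the others. The myogenic factor Myf5 fell from 29.5 ± 5.67 to 8.64 ± 0.840 FPKM (with limma adjusted p = 0.000239), and the surface marker Cd34 was at 8.73 ± 1.05 and 0.318 ± 0.0997 FPKM, entering the test only through WT. Hes1, a Notch target, and the differentiation inhibitors Id1 and Id3 rose at log2 changes of 1.22, 0.96 and 1.10 (limma adjusted p = 0.000302, 0.00285 and 0.001). The part of these markers in the changes of the FGF and HGF genes was not tested either. Of the adipocyte markers, Adipoq and Plin1 were listed at 0 in every library, and the list summed to between 3.51 and 5.20 FPKM across WT and between 2.54 and 3.03 FPKM in the others. The endothelial markers summed to at most 1.25 FPKM across WT and 0.167 FPKM in the others. The macrophage markers summed to between 4.90 and 8.20 FPKM and between 2.58 and 3.25 FPKM.

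Genes closest in pattern were found by the Euclidean distance between log2(FPKM + 1) values centred on each gene's mean over the 6 libraries. Nearest to Fgfr1 were Pop7 (distance 0.0689), a subunit of RNase P, and the glycosyltransferase gene Mgat3 (0.0841). Nearest to Fgf21 were Eva1b (0.228) and Ier2 (0.260), at larger distances than for the other 5 genes. Nearest to Met were Usp25 (0.0673), a deubiquitinase, and Prr14l (0.0703). Fgfrl1 was nearest to Aldh9a1 (0.0484) and Sptssa (0.0600), Fgfr3 to Il17rc (0.0904) and Inhbb (0.0930), and Hgf to Gpn3 (0.0829) and Smg8 (0.129). The distances describe the values of 6 libraries in 2 groups.

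**Figure D5:**
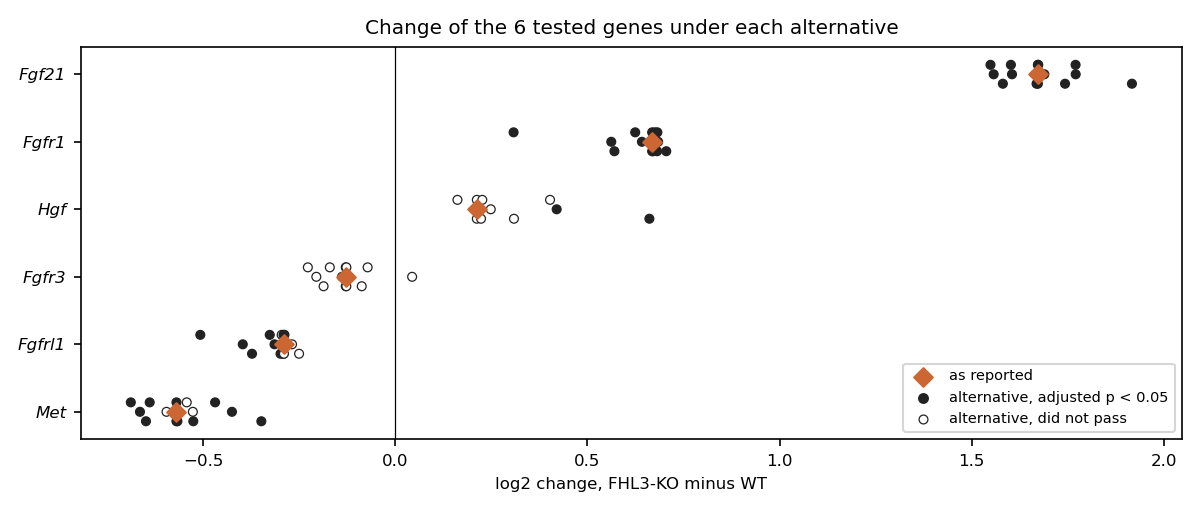
Log2 change, FHL3-KO minus WT, of the 6 tested genes as reported (diamonds) and under each alternative of processing or left-out library (filled points passed a limma adjusted p of 0.05, open points did not). Fgf21 lies between 1.55 and 1.92 and Fgfr1 between 0.31 and 0.71, all passing, while Met and Fgfrl1 keep their direction with some open points.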

How the data were processed

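RNA-seq values of 6 C2C12 libraries (WT and FHL3-KO, 3 each) were taken from the deposited table of FPKM, which the authors made. The unit is not named in the table and was read from the values. The submitters' processing notes name Trim Galore 0.6.6, HISAT2 2.2.1, featureCounts 2.0.1, DESeq2 1.28.1 and the build mm10; the annotation and strand setting are unknown here (not given in the sources used). Of 55420 rows, 7 with 3 repeated gene IDs were left out, and 1492 had no gene name. Coordinates and exon lengths came from GENCODE M21 (GRCm38) and promoters from RefSeq (GRCm38.p6).

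Genes whose mean reached 1 FPKM in either group were tested on log2(FPKM + 1) with limma 3.58.1 in R 4.3.3, with Benjamini-Hochberg adjustment over all 12528 genes and a threshold of 0.05; fold changes on this scale understate those of low genes. The fit was tested on simulated data. Single values were compared by exact two-sided permutation tests (scipy 1.17.1). No count test was run, since the table holds no counts. The genes, lists and tests were chosen with earlier results of these data known. The named genes are the 10 genes, Fhl3, for each list the 3 other genes of smallest p, and the 2 nearest in pattern to each tested gene, 52 in all; some of these are not reported here. Spry2, Spry4, Egr3, Ier3, Myc, Phlda1, Fos, Ccnd1, Etv1, Etv4, Etv5, Spred3, Il17rd, Atf4, Asns, Psat1, Phgdh, Ddit3, Eif2ak3, Hspg2, Sulf2, Mapk3, Eya1, Myf5, Cd34, Hes1, Id1, Id3, the HGF proteases, Letm2 and Tacc1 were named after their values were seen. Alternatives were other pseudocounts, filters, scalings, a length and GC correction, a replicate block and left-out libraries; removal of chromosome medians was added after seeing the data.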

Additional observations from a re-analysis of the deposited data

How the results depend on the processing

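Over 70 named genes and their alternatives, 1017 of 1108 values kept direction and side of the threshold, 76 lost the call, 11 gained one and 4 reversed. The reversals were Fgfr3 (0.044) and Inhbb (0.0276) after quantile normalization, and Fgf11 (-0.0062) and Gpn3 (-0.0011) with length and GC trends removed; none of these genes passed the test, and the cause was not tested. At a threshold of 0.01, 1337 genes rose, 1358 fell and 0 of the 10 FGF and HGF genes fell (limma; 2 at an unadjusted p under 0.05). Leaving out 1 library gave 1605 to 2422 rises and 1667 to 2851 falls over all genes, fewest without WT replicate 2, and 0 to 2 falls among the 10 genes, with 0 without WT replicate 2 or the replicate 1 or 3 labelled FHL3-KO. Without a filter on low values 1 of the 10 fell. With Fgfrl1 counted among the receptors, the share of Fgfr1 differed by 16.8 points and that of Fgfr3 by -0.918 points.

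The deviations of same-numbered libraries had correlations of -0.127, -0.063 and 0.316. With so few libraries per group, these values cannot decide whether the numbers pair the libraries. With the replicate number as a block, 2265 genes rose and 2494 fell, and 2 of the 10 rose and 2 fell. Fgf13 (adjusted p = 0.0987) and Aldh9a1 (0.0738) did not pass under the block, and not every library correlated best with its own number. Absolute depth is unknown, so Fgfr2, Fgfr4 and Fgf7 near 0 carry no limit of detection.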
